A study of Mus musculus with 2 samples.

Results

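The genes described here are 3 chemokines that draw in neutrophils, Cxcl1, Cxcl2 and Cxcl3, and 3 receptors that neutrophils carry, Cxcr2, Cxcr4 and Csf3r. They were chosen by name, 6 of the 32285 genes in the count tables, and none of them was used to assign cells to types. Cells had been sorted by FACS as live, DAPI-negative and CD45-positive from dissociated hepatocellular carcinomas of MYC-ON mice. These are mice whose tumours arise with the MYC transgene switched on; the promoter that drives it is not given in the sources used here. The first group had received the vehicle DMSO by gavage, and the second an agent that is named only as STK. Each group is 1 library made with the 10x 5′ v2 kit, both carry the same batch label, and the number, age and sex of the animals are not given. With 1 library a group no test of the treatment was possible. Each difference below is between these 2 libraries, and each interval is a 95% interval for counting error alone.

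CXCL1, CXCL2 and CXCL3 are small secreted proteins that bind CXCR2, the main chemokine receptor for neutrophil entry into inflamed tissue. Their genes are immediate targets of NF-kB and are switched on by interleukin-1, TNF and bacterial products in macrophages, neutrophils and epithelial cells, the hepatocyte among them. CXCR4 binds CXCL12, which holds neutrophils in the bone marrow, and CXCR4 is also used by many lymphocytes. CSF3R is the receptor for G-CSF, the growth factor under which neutrophils form, mature and leave the marrow. Cxcr4 and Csf3r are therefore receptors of the same cell, not receptors for the 3 chemokines.

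The DMSO library kept 11152 cells and the STK library 10846 after filtering (at least 500 UMIs and 250 genes, at most 10% mitochondrial UMIs). A UMI is 1 tagged RNA molecule, and the median cell had 4471.5 UMIs in DMSO and 4930.5 in STK. Marker genes placed the cells in 12 types that held at least 50 cells in each library, while 14.7% of DMSO and 12.2% of STK cells met no gate. The neutrophil-like cells numbered 371 and 337, with a median of only 1302 and 1337 UMIs. The macrophage-like cells numbered 1070 and 1072, and cells with hepatocyte or tumour markers were still present after the CD45 sort, 1798 in DMSO and 1327 in STK. A share of a gene's UMIs therefore describes the sorted cells and not the tumour. The libraries also differed in the sex of their cells. Of the cells that had RNA of 1 sex only, 18.8% were female in DMSO and 74.0% in STK. Sex and treatment therefore cannot be told apart over all cells, and values within female and male cells are given beside the main results. RNA of neither sex was found in 5564 DMSO and 4318 STK cells, and of both in 124 and 294. Female and male values thus cover only part of the cells and do not adjust the whole for sex. The libraries shared 183 barcodes among the kept cells.

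The 3 chemokine genes lie together on mouse chromosome 5, all on the forward strand. In GRCm38 with GENCODE vM21, Cxcl3 (ENSMUSG00000029379) is at chr5:90786103-90789600, Cxcl1 (ENSMUSG00000029380) at chr5:90891241-90893115 and Cxcl2 (ENSMUSG00000058427) at chr5:90903871-90905938. The gap between Cxcl3 and Cxcl1 is 101640 bases and that between Cxcl1 and Cxcl2 is 10755 bases. The receptor genes stand elsewhere, Cxcr2 (ENSMUSG00000026180) at chr1:74153989-74161246, Cxcr4 (ENSMUSG00000045382) at chr1:128588199-128592293 on the reverse strand and Csf3r (ENSMUSG00000028859) at chr4:126024550-126044440. The chemokine promoters are shown because the 3 genes are known as NF-kB targets and carry the same run of bases close to their starts. Each line holds the RefSeq promoter of GRCm38.p6, forward strand, from 250 bases before to 50 bases after the start, and capitals mark matches to the NF-kB-like motif of GGG, any 3 bases, then TTCC, on either strand.
Cxcl1, chr5:90890995-90891294: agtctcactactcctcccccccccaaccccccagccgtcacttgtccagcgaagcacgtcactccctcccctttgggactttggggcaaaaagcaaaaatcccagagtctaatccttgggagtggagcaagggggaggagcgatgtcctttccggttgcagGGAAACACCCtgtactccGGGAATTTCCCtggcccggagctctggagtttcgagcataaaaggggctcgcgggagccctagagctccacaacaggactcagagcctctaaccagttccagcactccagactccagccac
Cxcl2, chr5:90903649-90903948: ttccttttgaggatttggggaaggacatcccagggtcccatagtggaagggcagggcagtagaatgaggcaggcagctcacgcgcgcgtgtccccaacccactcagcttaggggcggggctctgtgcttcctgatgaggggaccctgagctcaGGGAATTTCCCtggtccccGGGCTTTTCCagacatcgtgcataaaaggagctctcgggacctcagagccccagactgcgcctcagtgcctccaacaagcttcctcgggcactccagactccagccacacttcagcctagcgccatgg
Cxcl3, chr5:90785851-90786150: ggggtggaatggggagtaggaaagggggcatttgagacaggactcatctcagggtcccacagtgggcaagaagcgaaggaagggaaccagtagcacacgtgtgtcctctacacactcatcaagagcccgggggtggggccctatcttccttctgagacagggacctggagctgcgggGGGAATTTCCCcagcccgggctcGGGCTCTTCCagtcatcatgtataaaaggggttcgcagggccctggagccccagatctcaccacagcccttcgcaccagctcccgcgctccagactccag

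All 3 promoters held 3 matches. An overlapping pair of them, 1 on each strand, is the run GGGAATTTCC and, 1 base on, GGAATTTCCC, which meets the motif on the reverse strand. The run began 71 bases before the start in Cxcl1, 97 in Cxcl2 and 73 in Cxcl3. The third match was GGAAACACCC in Cxcl1, 89 bases before the start, GGGCTTTTCC in Cxcl2, 78 bases before it, and GGGCTCTTCC in Cxcl3, 50 bases before it. Among 32851 RefSeq promoters of that length, 5.56% held the motif and 0.201% held it more than once, counting overlaps. The promoters of Cxcr2 and Cxcr4 held no match and that of Csf3r held 1. A match of letters is not evidence of binding.

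The Cxcl2 and Cxcl3 transcripts share an exact run of 157 bases, starting at base 61 of a Cxcl2 and base 57 of a Cxcl3 transcript, near the 5′ end that this kit reads. A read that falls wholly inside this run cannot be assigned to either gene from its sequence. How such reads were counted is not given in the sources used here, so the levels of Cxcl2 and above all of Cxcl3 are uncertain to that extent. Cxcl1 shares at most 23 bases with either of them.

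Over all kept cells, Cxcl1 was 2.29 times higher in the STK library than in DMSO, and it was the only one of the 6 genes to pass a fold of 1.5 in either direction. Cxcl1 stood at 21.3 CPM (the gene's UMIs per 1000000 UMIs of the cells named) in DMSO and 48.9 in STK, from 1665 and 3893 UMIs (ratio interval 2.16 to 2.43). Cxcl2 was at 269 and 391 CPM, 1.45 times higher (1.43 to 1.48). Cxcr4 was at 61.1 and 82.6 CPM, 1.35 times higher (1.30 to 1.40). The other members differed less. Cxcl3 was at 7.01 and 5.94 CPM (ratio 0.847), Cxcr2 at 6.70 and 5.89 CPM (ratio 0.879) and Csf3r at 25.2 and 24.3 CPM (ratio 0.964, 0.905 to 1.03). Of the 17819 genes with at least 10 UMIs, 9.79% were at least 1.5 times higher in STK and 9.88% at least 1.5 times lower. For the whole sort, a difference mixes the level within each cell type with the share of each type, so the genes are described by type below.

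**Figure D1:**
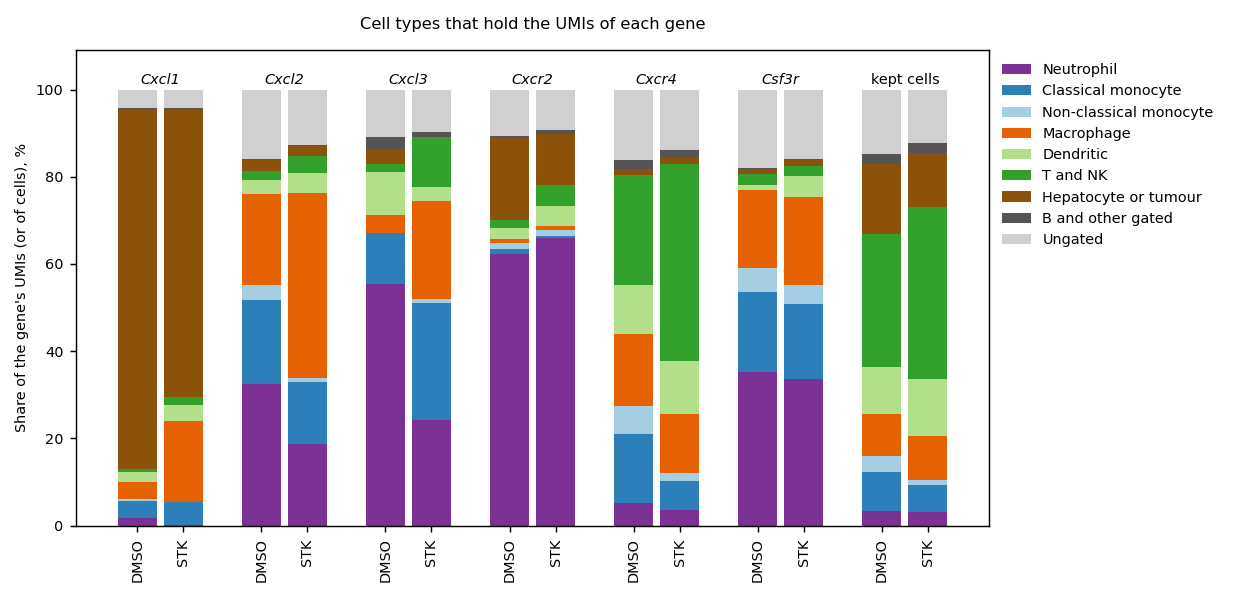
Share of each gene's UMIs (bars, percent, 0 to 100) that came from each cell type in the DMSO and the STK library, with the share of kept cells beside them. Neutrophil-like cells supplied 32.5% of the Cxcl2 UMIs in DMSO and 18.6% in STK, while macrophage-like cells supplied 21.0% and 42.4%; cells with hepatocyte or tumour markers supplied most of Cxcl1 in both libraries.

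Cxcl2 had its highest level in neutrophil-like cells, the cells that its product attracts, and its level in macrophage-like cells was 2.20 times higher in STK than in DMSO. In neutrophil-like cells it reached 12064 CPM in DMSO and 9854 CPM in STK, from 6841 and 5807 UMIs, a ratio of 0.817 (0.789 to 0.846). The next type in order, macrophage-like cells, had 717 and 1576 CPM, and the intervals and library values of these types did not overlap. Classical monocyte-like cells followed with 796 and 1094 CPM and non-classical monocyte-like cells with 495 and 508 CPM. The macrophage-like and classical monocyte-like levels overlapped across the libraries, and in STK, but not in DMSO, the macrophage-like level was the higher. The 8 other types lay between 15.4 and 163 CPM in both libraries.

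Nearly every neutrophil-like cell held Cxcl2 RNA. Cells thinned to 1000 UMIs each, so that depth does not set the share, had at least 1 Cxcl2 UMI in 85.2% of DMSO and 86.6% of STK neutrophil-like cells (66 and 69 shallower cells left out). Unthinned, these shares were 86.8% and 87.5%. The thinned share was 20.5% and 36.7% in macrophage-like cells, 20.5% and 29.5% in classical monocyte-like cells and 11.5% and 21.9% in non-classical monocyte-like cells. B-like cells, which should lack the RNA, gave 1.5% and 2.40%, and cells with hepatocyte or tumour markers gave 1.31% and 2.22%. Thinned shares of T-like cells, 1.14% and 2.04%, and of NK-like cells, 1.45% and 1.58%, were no higher than these. B-like cells are not a clean background, since their summed level of 5 neutrophil markers was 378 CPM in DMSO and 131 CPM in STK. It was 42.9 and 182 CPM in T-like cells and 43.2 and 46.0 CPM in NK-like cells. Whether T-like and NK-like cells express Cxcl2 therefore cannot be read from these shares.

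In macrophage-like cells both the share of cells with Cxcl2 and the load per cell were higher in STK. Unthinned, 28.1% of DMSO and 50.8% of STK macrophage-like cells had at least 1 Cxcl2 UMI. Cells with 30 or more Cxcl2 UMIs made up 4.39% in DMSO, 47 cells, and 13% in STK, 139 cells. These few cells held 53.2% and 72.5% of the type's Cxcl2 UMIs. The median macrophage-like cell was deeper in STK, at 7567.5 UMIs against 5645.5, which bears on counts per cell but not on CPM. Of the 5 members with at least 10 UMIs in macrophage-like cells, the 3 chemokines were at least 1.5 times higher in STK and both receptors were between, against 7.59% of genes higher and 11.2% lower there.

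The macrophage-like Cxcl2 difference was present in each sex and each subset that could be measured. Female cells had 628 CPM in DMSO and 1774 CPM in STK (ratio 2.82, 2.42 to 3.32, from 47 and 484 cells), and male cells 708 and 1476 CPM (ratio 2.09, 1.97 to 2.21, from 412 and 175 cells). Macrophage-like cells with Spp1 or Arg1, genes of a tumour-associated state, had 1069 and 2154 CPM, and the other macrophage-like cells 666 and 1395 CPM. The ratios in these subsets were 2.02 and 2.10. Kupffer-like cells, the resident macrophages of the liver, were too few to compare, with 13 cells in DMSO and 48 in STK, and held 13 and 588 Cxcl2 UMIs. RNA of neutrophils was not higher in these cells, since the summed level of 5 neutrophil markers was 30.7 CPM in DMSO and 22.3 CPM in STK.

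**Figure D2:**
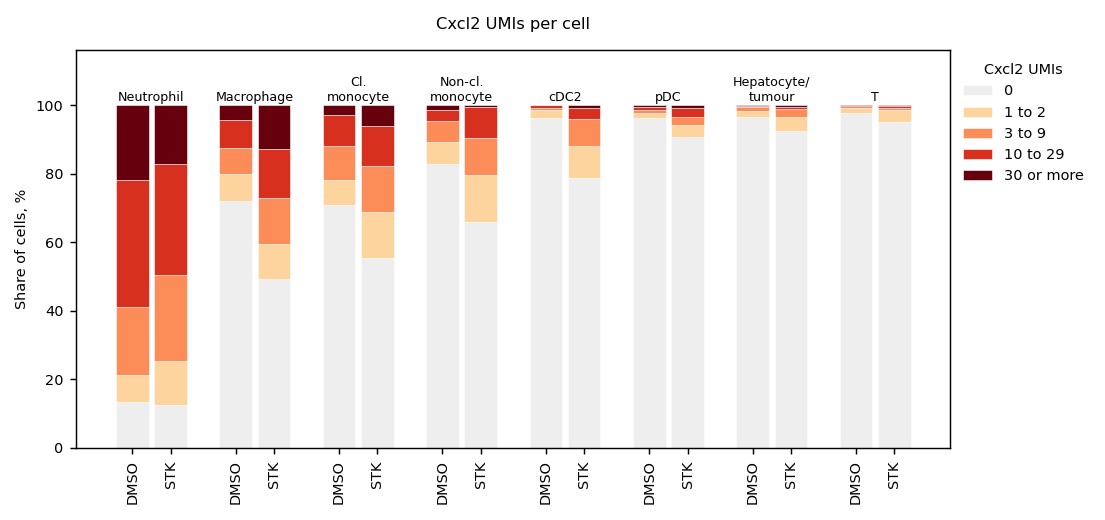
Share of cells (percent) of 8 cell types by the number of Cxcl2 UMIs in the cell, for DMSO and STK. The segment of 30 or more UMIs covers 21.8% of DMSO and 17.2% of STK neutrophil-like cells, and 4.39% and 13% of macrophage-like cells.

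Other types differed in Cxcl2 with fewer cells behind them. Conventional type 2 dendritic-like cells (cDC2) went from 45 UMIs in 8 cells, 27.1 CPM, to 422 UMIs in 57 cells, 163 CPM, a ratio of 6.0 (4.41 to 8.36). In DMSO 2 cells held 82.2% of the UMIs. The ratio was 3.62 under a stricter gate and 54.5 without the 5 richest cells, both outside that interval. The thinned share of cDC2-like cells with Cxcl2 was 0.476% in DMSO and 6.69% in STK, the first below the B-like background and the second above it. Their summed neutrophil markers were 4.82 and 6.17 CPM. Male cDC2-like cells had 21.6 and 123 CPM (ratio 5.69), and the 12 female cells in DMSO held no Cxcl2 UMI. Classical monocyte-like cells were 1.37 times higher in STK (1.32 to 1.44), or 1.41 times among female and 1.39 times among male cells. The non-classical type was 1.03 times as high (0.898 to 1.17).

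The low Cxcl2 levels of lymphocytes came from few of their cells. In T-like cells 317 UMIs in DMSO came from 58 of 2487 cells and 762 in STK from 146 of 3016 cells, 26.5 and 53.6 CPM. In B-like cells 61 of 64 UMIs in DMSO came from 1 cell. In cells with hepatocyte or tumour markers the levels were 15.4 and 29.7 CPM, and the 5 cells with the most Cxcl2 held 52.1% and 38.5% of the UMIs. Their ratio of 1.94 was 1.15 (0.889 to 1.49) within female cells and 4.91 within male cells.

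**Figure D3:**
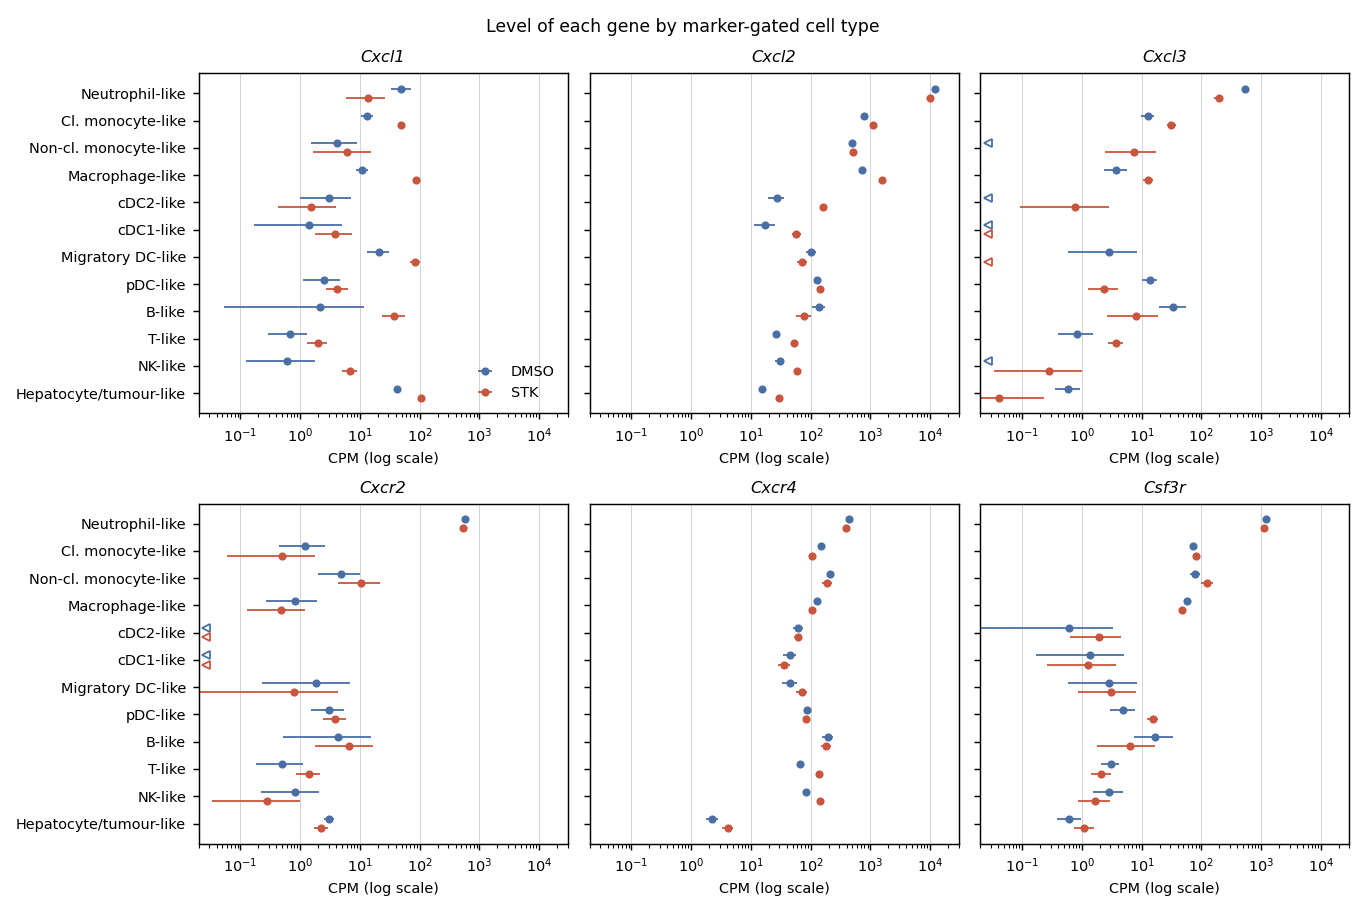
Level of each gene (CPM, log axis) in 12 cell types, DMSO and STK, with bars for the 95% counting interval; open triangles mark types with no UMI. Neutrophil-like cells lead for Cxcl2, Cxcl3, Cxcr2, Cxcr4 and Csf3r, while Cxcl1 in STK is led by cells with hepatocyte or tumour markers at 104 CPM; in DMSO those cells and neutrophil-like cells, at 42.4 and 49.4 CPM, have overlapping intervals.

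Cxcl1, the chemokine that hepatocytes are known to secrete in inflammation, came mostly from cells with hepatocyte or tumour markers, and was higher in STK in these and in most other types. Those cells had 42.4 CPM in DMSO and 104 CPM in STK, from 1371 and 2556 UMIs, a ratio of 2.46 (2.31 to 2.63). They supplied 82.3% of all Cxcl1 UMIs in DMSO and 65.7% in STK. At least 1 Cxcl1 UMI was found in 270 of 1798 cells, 15.0%, and 379 of 1327 cells, 28.6%. Thinned to 1000 UMIs, the shares were 3.34% (2.53% to 4.31%) and 6.75% (5.40% to 8.31%), against 0.50% and 0.481% in B-like cells. Female cells had 60.4 and 108 CPM (ratio 1.79, 1.60 to 2.01), and male cells 32.7 and 110 CPM (ratio 3.37, 2.95 to 3.84). The STK levels of the sexes were close and the DMSO levels were not.

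In macrophage-like cells Cxcl1 was 7.89 times higher in STK (6.14 to 10.3), at 10.9 CPM in DMSO and 86.0 CPM in STK. The 67 UMIs of DMSO came from 19 cells and the 720 of STK from 84 cells, so the gene was seen in 1.78% and 7.84% of these cells. The 5 cells with the most Cxcl1 held 68.7% and 39.2% of the UMIs. Male macrophage-like cells had 14.9 CPM in DMSO and 125 CPM in STK (ratio 8.35, 6.01 to 11.9). Female cells held 1 UMI in 47 DMSO cells and 309 in 484 STK cells. Macrophage-like cells supplied 4.02% of Cxcl1 UMIs in DMSO and 18.5% in STK.

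Cxcl1 in these cells was found almost wholly in cells that also held Cxcl2. In DMSO 63 of the macrophage Cxcl1 UMIs were in the 301 cells with a Cxcl2 UMI and 4 in the 769 without, 30.5 against 0.980 CPM. In STK 709 were in the 545 cells with Cxcl2 and 11 in the 527 without, 151 against 3.0 CPM. The cells with Cxcl2 were somewhat deeper, with a median of 6797 against 5291 UMIs in DMSO and 8143 against 6894 in STK. In classical monocyte-like cells Cxcl1 stood at 40.7 against 0.578 CPM in DMSO and 102 against 3.24 CPM in STK, in cells with and without Cxcl2.

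Cxcl1 levels in the other types rested on few cells. Classical monocyte-like cells had 67 UMIs in 8 cells and 199 in 25 cells, 13.3 and 49.2 CPM, a ratio of 3.71 (2.80 to 4.97). Migratory dendritic-like cells had 22 UMIs in 5 cells and 108 in 12 cells, 20.6 and 84.0 CPM. Neutrophil-like cells went the other way, with 28 UMIs in 11 cells and 8 in 5 cells, 49.4 and 13.6 CPM, a ratio of 0.275 (0.108 to 0.619). In NK-like cells 38 of 48 STK UMIs, and in B-like cells 21 of 23, were in 1 cell. Counting all 12 types, Cxcl1 was at least 1.5 times higher in STK in 9, lower in neutrophil-like cells, between in non-classical monocyte-like cells and under 10 UMIs in cDC2-like cells. In 7 of the 9 the interval of the ratio lay above 1. Among the 7 were NK-like and B-like cells, where 1 cell held most of the STK UMIs. The interval counts the UMIs of 1 cell as independent. For these types it therefore cannot show that cells in general held more Cxcl1 in STK. The share of all measured genes at least 1.5 times higher and lower was 16.9% and 16.7% in B-like, 12.1% and 7.68% in plasmacytoid dendritic-like, 12.2% and 10.7% in cDC1-like, 9.33% and 16.5% in cDC2-like, 12.1% and 14.6% in migratory dendritic-like and 12.4% and 15.4% in non-classical monocyte-like cells. For the larger types it is given beside their counts. In the order of levels over both libraries, the neighbours from hepatocyte or tumour cells down to classical monocyte-like cells all overlapped.

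Cxcl3, the third CXCR2 ligand of the cluster, was lower in STK neutrophil-like cells and higher in STK macrophage-like and classical monocyte-like cells. B-like cells were also lower, at 34.0 and 8.07 CPM, as were plasmacytoid dendritic-like cells, at 13.8 and 2.37 CPM. So were cells with hepatocyte or tumour markers, at 0.587 and 0.0409 CPM, while T-like cells were higher, at 0.837 and 3.66 CPM. Neutrophil-like cells had 303 UMIs in DMSO and 114 in STK, 534 and 193 CPM, a ratio of 0.362 (0.289 to 0.450). The UMIs came from 46 and 33 cells, and the 5 richest cells held 59.4% and 43.0% of them. The share of neutrophil-like cells with Cxcl3 differed less, at 11.1% (7.84% to 15.2%) in DMSO and 8.21% (5.22% to 12.2%) in STK after thinning. The lower level was not seen within the few cells of known sex, where the ratio was 1.04 (0.661 to 1.61) in male cells, 50 and 21, and 1.13 in female cells, 8 and 21. Neutrophil-like cells without sex-specific RNA, 313 and 293, had a ratio of 0.320 (0.242 to 0.418).

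Classical monocyte-like cells had 12.7 CPM of Cxcl3 in DMSO and 31.4 CPM in STK, from 64 and 127 UMIs, a ratio of 2.48 (1.82 to 3.40). Macrophage-like cells had 3.74 and 12.7 CPM, from 23 and 106 UMIs, a ratio of 3.38 (2.14 to 5.57). As with Cxcl1, 103 of the 106 UMIs of STK macrophage-like cells were in cells with a Cxcl2 UMI. The part of reads from the run that both genes share was not tested. Neutrophil-like cells supplied 55.4% of the gene's UMIs in DMSO and 24.1% in STK. No Cxcl3 UMI was found in type 1 dendritic-like cells (cDC1), and in the thinned data 0 of 128 DMSO and 0 of 178 STK cells had one. Taken as 3 counts of the total, this allows a share of cells with a UMI at that depth of up to 2.34% and 1.69%, which is no limit on the cells that express the gene.

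Of the 6 genes in neutrophil-like cells, Cxcl1 and Cxcl3 were at least 1.5 times lower in STK and the other 4 were between, while 15.8% of 6757 genes were higher and 16.1% lower there. In classical monocyte-like cells 2 of 5 measured members were higher and none lower, against 9.04% and 11% of genes. In cells with hepatocyte or tumour markers 4 of 6 were higher and 1 lower, against 10.7% and 6.54%.

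**Figure D4:**
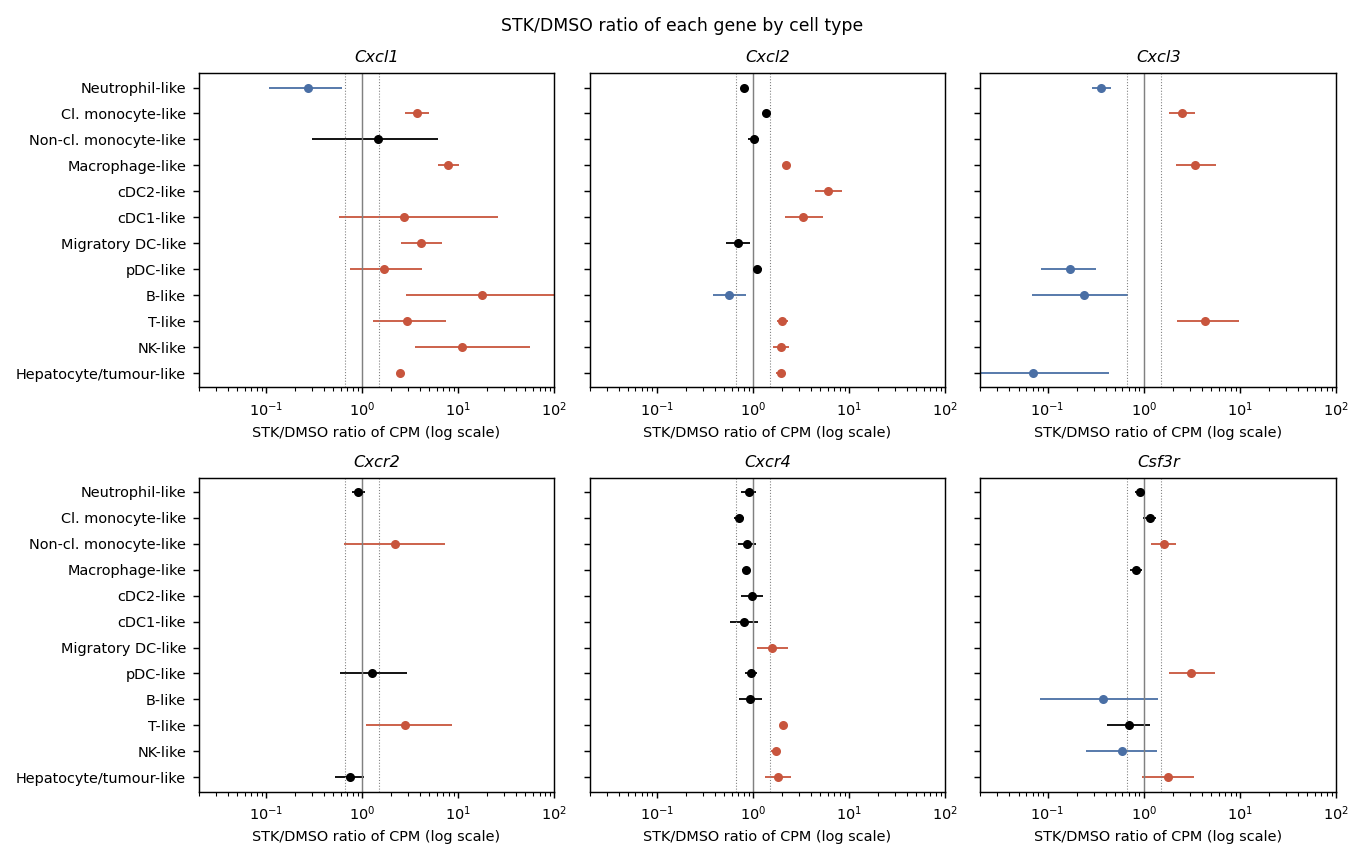
STK over DMSO ratio of CPM for each gene and cell type (log axis) with its 95% counting interval, for pairs with at least 10 UMIs; dotted lines mark a fold of 1.5 either way, red points are higher, blue lower and black between, and the intervals of B-like Cxcl1 and hepatocyte or tumour Cxcl3 run past the axis. The 3 chemokines are to the right in macrophage-like cells, and Cxcr2 and Csf3r of neutrophil-like cells lie close to 1.

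Cxcr2, the receptor for the 3 chemokines, was found mainly in neutrophil-like cells, at levels that did not differ beyond counting error between the libraries. Its level there was 575 CPM in DMSO and 524 CPM in STK, from 326 and 309 UMIs, a ratio of 0.912 (0.778 to 1.07). A Cxcr2 UMI was found in 193 of 371 cells, 52.0%, and 174 of 337 cells, 51.6%. After thinning the shares were 46.2% (40.5% to 52.0%) and 41.4% (35.5% to 47.6%). In every other type the thinned share was at most 1.00%, which was the share in DMSO B-like cells. No Cxcr2 UMI was found in cDC1-like or cDC2-like cells of either library.

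Neutrophil-like cells supplied 62.3% of Cxcr2 UMIs in DMSO and 65.9% in STK. The next source was the cells with hepatocyte or tumour markers, 98 UMIs in 85 cells and 55 in 52 cells, at 3.03 and 2.25 CPM. They are many and deep, with a median of 17403.5 and 16190 UMIs, and their thinned shares of 0.715% and 0.412% were not above those of B-like cells, 1.00% and 0.481%. Neutrophil-like cells with markers of immaturity, 21 in each library, had 273 and 253 CPM of Cxcr2. The larger remainder of neutrophil-like cells had 616 and 594 CPM, with intervals of 547 to 690 and 526 to 669 that lay above those of the immature cells, 169 to 417 and 170 to 364. Neutrophil-like cells with Siglecf, 13 and 12, held 14 and 8 UMIs.

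Cxcr4, the CXCL12 receptor, had UMIs in each of the 12 types in both libraries, and it was about 2 times higher in STK in T-like cells of every measured subset except gamma-delta T-like cells, where the ratio was 1.45. T-like cells had 66.5 CPM in DMSO and 137 CPM in STK, from 794 and 1946 UMIs, a ratio of 2.06 (1.90 to 2.24). A Cxcr4 UMI was found in 23.3% and 39.0% of them, and after thinning in 7.66% (6.64% to 8.78%) and 14.4% (13.2% to 15.8%). Cells with hepatocyte or tumour markers gave thinned shares of 0.715% and 0.741%. Both T-like shares were above that background.

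By subset, CD8 T-like cells had 57.1 and 117 CPM of Cxcr4 and CD4 T-like cells other than regulatory cells 71.7 and 163 CPM. Regulatory T-like cells (Treg), the Foxp3-expressing suppressor cells that the series title names, had 70.1 and 145 CPM. The ratios were 2.04 (1.80 to 2.32), 2.27 (1.81 to 2.85) and 2.07 (1.66 to 2.59). T-like cells of no subset had 79.3 and 165 CPM. Gamma-delta T-like cells had 115 and 166 CPM from 28 and 84 UMIs, with an interval of the ratio of 0.933 to 2.30. Female T-like cells gave a ratio of 2.43 (1.80 to 3.34) and male ones 1.89 (1.63 to 2.18). For Treg-like cells alone the female ratio was 0.782, from only 8 DMSO and 65 STK UMIs. With so few DMSO UMIs, it cannot show whether this subset's difference held in female cells.

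NK-like cells had 83.4 CPM of Cxcr4 in DMSO and 143 CPM in STK, a ratio of 1.72 (1.53 to 1.93), and the female cells gave 1.32 (0.950 to 1.89), the male cells 2.35 (1.88 to 2.92). Their thinned share was 8.45% and 16.1%. In T-like cells 5 of 6 members were higher in STK and none lower, against 7.27% and 9.55% of genes, but the thinned shares of their chemokines and of Cxcr2 were not above those of B-like cells. Beside this, the summed level of the 5 neutrophil markers in T-like cells was 42.9 CPM in DMSO and 182 CPM in STK, and their Cxcr2 ratio of 2.80 was 1.25 without the cells that held S100a8 or S100a9. In NK-like cells 3 of 4 measured members were higher and 1 lower, against 8.22% and 9.85%.

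Neutrophil-like, monocyte-like and macrophage-like cells had Cxcr4 levels in STK at or below those in DMSO. Neutrophil-like cells, which had the highest level, were at 439 and 395 CPM (ratio 0.900, 0.750 to 1.08). Classical monocyte-like cells were at 148 and 107 CPM (ratio 0.721, 0.639 to 0.813) and macrophage-like cells at 127 and 107 CPM (ratio 0.840, 0.762 to 0.926). Within the sexes female classical monocyte-like cells gave a ratio of 0.792 (0.577 to 1.10) and male ones 0.491 (0.351 to 0.672), while the macrophage-like ratio was 1.35 and 0.963. Non-classical monocyte-like cells had 215 and 188 CPM and B-like cells 196 and 184 CPM, both with intervals of the ratio that included 1. With these levels and numbers of cells, T-like cells held 16.6% of Cxcr4 UMIs in DMSO and 29.6% in STK. Classical monocyte-like cells held 15.7% and 6.56%. Immature neutrophil-like cells had 6 Cxcr4 UMIs in DMSO and 0 in STK.

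**Figure D5:**
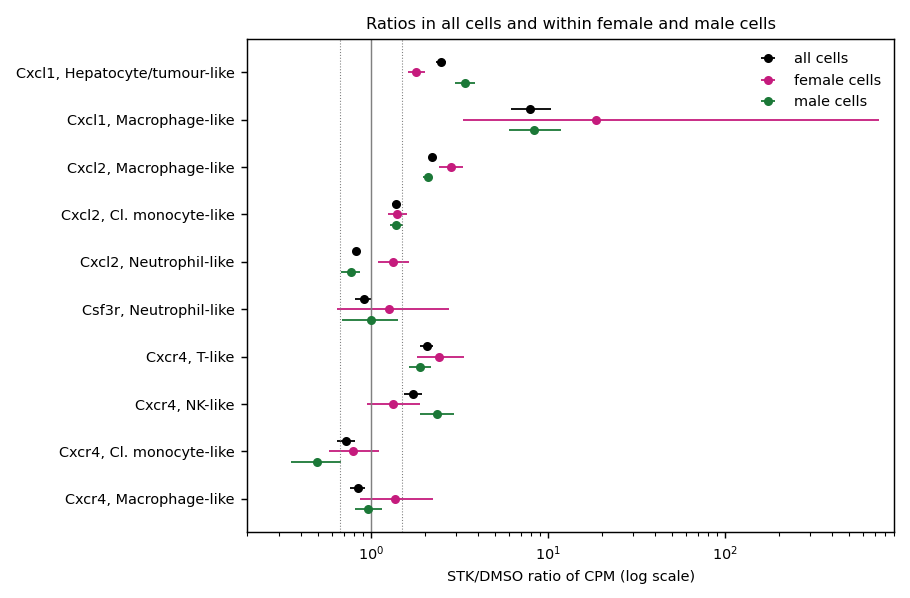
STK over DMSO ratio of CPM (log axis, 95% counting intervals) for 10 gene and cell type pairs in all, female and male cells. T-like Cxcr4 stays above 1.5 in each set, at 2.06, 2.43 and 1.89, as does macrophage-like Cxcl2, at 2.20, 2.82 and 2.09.

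Csf3r, the G-CSF receptor, did not differ beyond counting error between the neutrophil-like cells of the libraries, and was also found in monocyte-like and macrophage-like cells. Neutrophil-like cells had 1217 CPM in DMSO and 1105 CPM in STK, from 690 and 651 UMIs, a ratio of 0.908 (0.814 to 1.01). Thinned to 1000 UMIs, 66.9% (61.3% to 72.1%) and 66.4% (60.4% to 72.0%) of them held a UMI. The shares were 8.12% and 9.39% in classical monocyte-like cells, 7.50% and 10.3% in non-classical monocyte-like cells and 4.49% and 4.57% in macrophage-like cells. B-like cells gave 0.50% and 0.481% and cells with hepatocyte or tumour markers 0.179% and 0.412%, so the myeloid shares were above background.

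The level of Csf3r in classical monocyte-like cells was 71.2 CPM in DMSO and 81.8 CPM in STK (ratio 1.15, 0.987 to 1.34), and in macrophage-like cells 56.6 and 46.6 CPM (ratio 0.823, 0.710 to 0.954). Non-classical monocyte-like cells had 77.6 and 125 CPM, 1.61 times higher in STK (1.20 to 2.16); male cells alone gave 0.984. Plasmacytoid dendritic-like cells went from 4.95 to 15.3 CPM (ratio 3.09, 1.84 to 5.47), in 12 and 44 cells. Beside both stands the summed level of 5 neutrophil markers, which went from 110 to 704 CPM in non-classical monocyte-like cells and from 145 to 1080 CPM in plasmacytoid dendritic-like cells. Its part in these Csf3r differences was not tested. Immature neutrophil-like cells had 234 and 306 CPM of Csf3r, against 1377 and 1300 CPM in the larger remainder of neutrophil-like cells. In both libraries Cxcl2 was higher in neutrophil-like cells without a Csf3r UMI, at 15418 CPM in DMSO and 14218 CPM in STK, than in those with one, at 11201 and 8847 CPM. Whether a Csf3r UMI is seen also depends on the depth of the cell, and these cells were shallow. The part of depth in this difference was not tested.

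The other genes of the pathway were counted in the same way. Of the further ligands, receptors and growth factors, 16 of 19 had at least 10 UMIs over all cells, and 7 were higher in STK and none lower, against 9.79% and 9.88% of genes, with a median log2 ratio of 0.50 against -0.05 for all genes. Csf3, which encodes G-CSF, had 9 UMIs in DMSO and 42 in STK. Pf4, a platelet and macrophage chemokine, was 2.48 times higher and Cxcl16, the ligand of Cxcr6, 1.52 times higher. Cxcl12, the ligand of Cxcr4, was at 40.1 CPM in DMSO and 36.7 CPM in STK in cells with hepatocyte or tumour markers, which held 1298 of its 1365 DMSO and 897 of its 978 STK UMIs. Over all cells its ratio was 0.702.

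In macrophage-like cells, 4 of 21 inducers and NF-kB regulators were higher in STK and 1 lower, against 7.59% and 11.2% of genes, with a median log2 ratio of 0.15 against -0.04 for all genes. Il1a was 2.91 times higher, Tnf went from 70.6 to 131 CPM and Il6 from 9 to 34 UMIs, all cytokines that can induce these chemokines. Il1b was at 1993 and 2794 CPM (ratio 1.40). The part of these cytokines in the chemokine levels was not tested. Of the other chemotaxis genes there, 4 of 14 were higher and 2 lower: C5ar1, the complement C5a receptor, was 1.59 times higher, and Ccl3, a chemokine for monocytes and neutrophils, was at 746 and 325 CPM (ratio 0.436). The mRNA decay factor Zfp36, whose product tristetraprolin degrades inflammatory transcripts, was at 3474 CPM in DMSO and 1860 CPM in STK. Zfp36 was also lower in STK in B-like cells, at 1090 and 614 CPM, and in NK-like cells, at 719 and 262 CPM. It was lower too in cDC1-like cells, at 1894 and 890 CPM, and in cDC2-like cells, at 4813 and 1431 CPM. Migratory dendritic-like cells had 3463 and 1670 CPM and Treg-like cells 622 and 298 CPM, so the lower level was not particular to macrophage-like cells. Another decay factor, Zc3h12a, was higher in STK in B-like cells, at 40.4 and 79.1 CPM, and in NK-like cells, at 50.1 and 146 CPM. The part of decay factors in the chemokine levels was not tested. In neutrophil-like cells 4 of 8 decay factors were lower and none higher, against 16.1% of genes lower and 15.8% higher, with Zfp36 at 4225 and 2391 CPM.

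Of 20 maturation genes in neutrophil-like cells, 6 were higher in STK and none lower, against 15.8% and 16.1% of genes. Among the 6 were Ngp, Camp and Ltf, which encode proteins of secondary granules, with ratios of 2.02, 1.99 and 1.97. Cxcr1, which encodes the other receptor of this kind on neutrophils, had 3 and 12 UMIs. In T-like cells Rgs2, a regulator of G protein signalling, was 2.0 times higher, and Grk2, a kinase that desensitises chemokine receptors, was at 96.9 and 121 CPM. Of the 19 signalling and desensitisation genes 2 were higher there and none lower, against 7.27% and 9.55% of genes.

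Genes known to respond to tissue dissociation also differed between the libraries. In macrophage-like cells 2 of 17 were higher in STK and 8 lower, against 7.59% and 11.2% of genes, with Hspa1a, a heat shock gene, at 901 and 65.7 CPM and Jun at 1137 and 521 CPM. In T-like cells 3 were higher and 8 lower, against 7.27% and 9.55% of genes. In cells with hepatocyte or tumour markers 10 were higher and 1 lower, against 10.7% and 6.54%, with Fos at 173 and 420 CPM and Egr1 at 89.8 and 271 CPM, and there 9 of 19 inducers and NF-kB regulators were higher too, with Icam1 at 83.9 and 150 CPM. The part of these genes in the chemokine results was not tested.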

How the data were processed

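Sorted CD45-positive cells of MYC-ON liver tumours were measured in 1 DMSO and 1 STK library. The authors deposited unnormalized UMI counts per gene and barcode. The file headers name Cell Ranger 6.0.2 as their source, and the genome was GRCm38 (mm10), per the submitters' processing notes. Kept barcodes had at least 500 UMIs, 250 genes and at most 10% mitochondrial UMIs, which left 78065924 and 79681844 UMIs. Cells were gated by marker lists, with a type needing at least 3 markers, 30% of its list and a lead of 10 percentage points (6 of 17 markers for neutrophils). The gate limits were set after the data had been seen, and types are named X-like because no annotation was used. A gate's own markers made up 4 to 7 of its 10 leading genes. Cells were gated by these same markers, so this is no independent check of the gates. The 6 members and all lists were chosen with earlier results of these data known.

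Counts were summed per type and library and divided by the type's total (CPM), with exact Poisson intervals. Ratios carry exact conditional binomial intervals and shares Clopper-Pearson intervals (for 0 cells, the limit is 3 counts of the total), all at 95% and for counting error only. A gene with at least 10 UMIs over both libraries and a ratio of 1.5 or more either way was counted as higher or lower, with no test. All 6 members were measured in every type with at least 50 cells in each library, and some of these pairs appear only in the figures. Shares were also taken after thinning to 1000 UMIs. Scrublet doublets stayed in the main values; its automatic threshold called 217 DMSO and 0 STK cells, so a fixed score of 0.25, chosen after that was seen, was used as an alternative and called 396 (3.55%) and 425 (3.92%). Python 3.11.15, numpy 2.4.6, scipy 1.17.1, pandas 2.3.3 and scanpy 1.11.5 were used, and the ratio steps were tested on simulated counts.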

Additional observations from a re-analysis of the deposited data

Results flagged for a closer look

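For each chemokine, some type had more of it in STK and another type less, and the difference between the types was not tested in any of these cases. Cxcl1 had an STK over DMSO ratio of 17.5 in B-like cells (1 and 23 UMIs, interval 2.84 to 720) and of 0.275 in neutrophil-like cells (28 and 8 UMIs). In B-like cells 21 of the 23 UMIs were in 1 cell. Cxcl2 had a ratio of 6.0 in cDC2-like cells and of 0.570 in B-like cells, where 61 of the 64 DMSO UMIs were in 1 cell. Cxcl3 had a ratio of 4.37 in T-like cells (10 and 52 UMIs, 22 of the latter in 1 cell) and of 0.0696 in cells with hepatocyte or tumour markers (19 UMIs in 4 cells and 1 UMI).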

How the results depend on the processing

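No ratio past a fold of 1.5 turned direction, where a value could be computed, when Scrublet doublets, cells under 1000 UMIs, cells over 5% mitochondrial UMIs or the 5 cells with the most UMIs of the gene were left out, or under median-of-ratios scaling. For 94 ratios, 100 alternatives gave no value. Without the 5 richest cells 21 ratios moved, 47 stayed the same and the rest had no value. Ratios resting on few cells were probed least: B-like Cxcl1 had 7 alternatives and neutrophil-like Cxcl1 had 6. The higher Cxcl1 and Cxcl2 in macrophage-like cells, Cxcl1 in hepatocyte or tumour cells and Cxcr4 in T-like cells stayed past a fold of 1.5 in all 10 alternatives that gave a value. The ratios over all kept cells moved most within a sex. In female cells they were 1.32 for Cxcl1, 2.83 for Cxcl2, 0.670 for Cxcl3, 1.21 for Cxcr2, 2.07 for Cxcr4 and 1.56 for Csf3r, and in male cells 2.84, 1.91, 3.10, 0.757, 1.60 and 1.08 in that order. For Cxcl2, Cxcr4 and Csf3r both sex values lay above the ratio over all kept cells, at 1.45, 1.35 and 0.964. Cells outside the female and male groups count only in the latter. With each cell weighted equally the ratios over all kept cells were 2.14 for Cxcl1, 0.968 for Cxcl2, 0.464 for Cxcl3, 1.21 for Cxcr4 and 0.859 for Csf3r. Without cells holding S100a8 or S100a9 they were 1.89 for Cxcl2, 1.67 for Cxcl3 and 0.667 for Cxcr2. Median-of-ratios scaling gave 1.51 for Cxcl2 and 1.41 for Cxcr4, and leaving out the 5 richest cells gave 1.01 for Cxcl3. Some ratios within a fold of 1.5 crossed 1, among them Csf3r over all kept cells (1.00 under that scaling) and Cxcr4 in macrophage-like cells (1.35 in female cells).

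Among ratios past a fold of 1.5 by type, directions turned for Cxcl2 in NK-like cells (0.806 with equal weights, 0.175 in male cells), in B-like cells (7.53 without S100a8 or S100a9) and in cDC1-like cells (0.828 in male cells, 0.452 under a stricter gate). They turned for Cxcl1 in plasmacytoid dendritic-like cells (0.909 without S100a8 or S100a9) and for Cxcl3 there (2.09 in male cells). Within female cells, Cxcr4 turned in migratory dendritic-like cells (0.498, from 6 and 39 UMIs) and Treg-like cells (0.782, from 8 and 65 UMIs). Csf3r turned within male cells in non-classical monocyte-like cells (0.984) and hepatocyte or tumour cells (0.644). Cxcl3 turned in neutrophil-like cells (1.13 in female, 1.04 in male cells) and in those neither immature nor Siglecf-positive (1.01 in male cells). The cause was not tested in any of these.

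No paired analysis was possible because each group is 1 library, and leaving out a replicate was likewise not possible. Depth limits what can be said of neutrophil-like cells, whose median was 1302 and 1337 UMIs, and of Cxcl1 and Cxcl3 outside the main sources, where few cells hold the counts.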

Other observations

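For each member, the 5 genes whose log level across the 12 types and both libraries followed it most closely were found among 11800 genes. The 24 points share libraries, depth and gates, so these correlations are descriptions. Cxcl2 was followed by Clec4d (r of 0.96), Tnfaip2, Il1rn, Csf3r and C5ar1, and Cxcl3 by Hdc (0.93), Acod1, Gpat3, C5ar2 and Rab44. Cxcr2 was followed by Chil1 (0.99), Lrg1, Il1f9, Cstdc4 and Mmp9, and Csf3r by Vnn3 (0.98), Tlr6, Clec4d, Adipor1 and Tbc1d23. Clec4d, Hdc, Acod1 and Mmp9 were markers of the neutrophil gate. Cxcr4 was followed by Grk2 (0.94), the kinase that desensitises chemokine receptors, then Ptbp3, Bcl10, Cklf and Gmip. Cxcl1 stood apart, with Agrn first at 0.81, then Cpeb3, Chka, Hbegf and Cd63, and its correlation with Cxcl2 was 0.27.

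Cells that met no gate held 15.9% of Cxcl2 UMIs in DMSO and 12.7% in STK, at 484 and 543 CPM. Immature neutrophil-like cells, 21 in each library, had 4055 CPM of Cxcl2 in DMSO and 1816 CPM in STK, with 79.2% and 67.8% of the UMIs in 5 cells. Neutrophil-like cells with Siglecf, 13 and 12, had 9383 and 10422 CPM of Cxcl2. In neutrophil-like cells with a Cxcl3 UMI, Cxcl2 stood at 21556 CPM in DMSO and 15739 CPM in STK, against 10632 and 9150 CPM in the rest. The parts of cell depth and of reads from the run that both genes share were not tested. The CD8 T-like cells had a summed level of 5 neutrophil markers of 42.4 CPM in DMSO and 315 CPM in STK, while their Cxcl2 was at 33.2 and 22.5 CPM.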
